A study of Mus musculus with 12 samples.

Results

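Retinoid binding and retinoic acid synthesis were described in prostate tissue by 8 genes, matched by symbol among the 23284 genes of the deposited table: Rbp4, Stra6, Crabp1, Crabp2, Rdh10, Aldh1a1, Aldh1a2 and Aldh1a3. All 8 were in the table and 7 were tested. Rbp4 stayed under the filter on low values. The tissue came from 4-month-old mice on a hybrid background of the inbred strains 129/SvImJ and C57Bl/6J. There were 6 libraries from mice homozygous for a null allele (null) and 6 from mice with both alleles intact (wild-type). RNA was selected by poly-A and sequenced, and the question was how loss of the allele changed the prostate transcriptome. The values are on a log2 scale. Whether they are scaled by gene length is unknown, so levels are compared between genotypes and not between genes. Summed levels of marker genes add unlogged values, so each sum follows its genes of highest value.

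Retinol travels in blood on the carrier encoded by Rbp4 and enters some cells through the membrane receptor encoded by Stra6. Rdh10 encodes a retinol dehydrogenase that makes retinaldehyde, which the enzymes of Aldh1a1, Aldh1a2 and Aldh1a3 oxidise to retinoic acid. Crabp1 and Crabp2 encode small cytosolic proteins that hold retinoic acid, CRABP2 being known for handing it to nuclear receptors and CRABP1 for keeping it in the cytosol. Retinoic acid takes part in the development of the urogenital tract and in the differentiation of its epithelia.

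The table holds no read totals, and depth per library is therefore unknown. Undetected genes scattered around a floor: over 1123 olfactory receptor genes the median value was 2.85 and the 95th percentile 3.51. The prostate secretory gene Pbsn, which encodes probasin, stood at 15.63 to 16.14 in null libraries and at 17.90 to 18.06 in wild-type libraries, so this marker of the labelled tissue was present in all 12. The libraries of each genotype fell into sets, null libraries 1, 2 and 5 and null libraries 3, 4 and 6, and wild-type libraries 1 to 3 and 4 to 6. These sets were found from the expression values and not from the labels, so whether the 3 libraries of a set are independent is unknown. Null library 5 lay between null libraries 1 and 2 in 5 of the 8 genes, and null library 6 between null libraries 3 and 4 in 4 of them. For the seminal vesicle gene Svs2, null library 5 was 0.062 log2 units from an equal mix of libraries 1 and 2, and null library 6 was 0.036 from one of libraries 3 and 4. Among the 7 tested genes the largest such distances were 0.24 for null library 5 (Crabp2) and 0.71 for null library 6 (Crabp1, near the floor). Each n of 6 null libraries and its SD may therefore rest on fewer independent samples, and without null libraries 5 and 6 no call among the 7 tested genes changed. No label states that each library is a separate animal. The p-values rest on the variation among libraries, some or all of which may be technical. Calls from limma are therefore given over 12 libraries and over the 4 set means. In bulk tissue, fewer cells of a type and less RNA per cell cannot be told apart.

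Of the 7 tested genes, 4 passed limma's test over 12 libraries (adjusted p under 0.05), with Rdh10 higher and Crabp1, Aldh1a1 and Aldh1a3 lower in null prostate. Among all 15096 tested genes 53.1% were called in the same fit, 28.0% higher and 25.1% lower, so 4 of 7 is near the background. Over set means 2 of the 7 passed, Rdh10 higher and Crabp1 lower, against 14.5% of all tested genes, 7.58% higher and 6.96% lower. In 4 of 7 genes the genotypes did not overlap, as in 32.6% of all tested genes. The median difference of the 7 genes was -0.48, against 0.012 over all tested genes. Crabp1 entered the test only through its wild-type libraries, where it is high, so its pass was bound up with the filter.

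**Figure D1:**
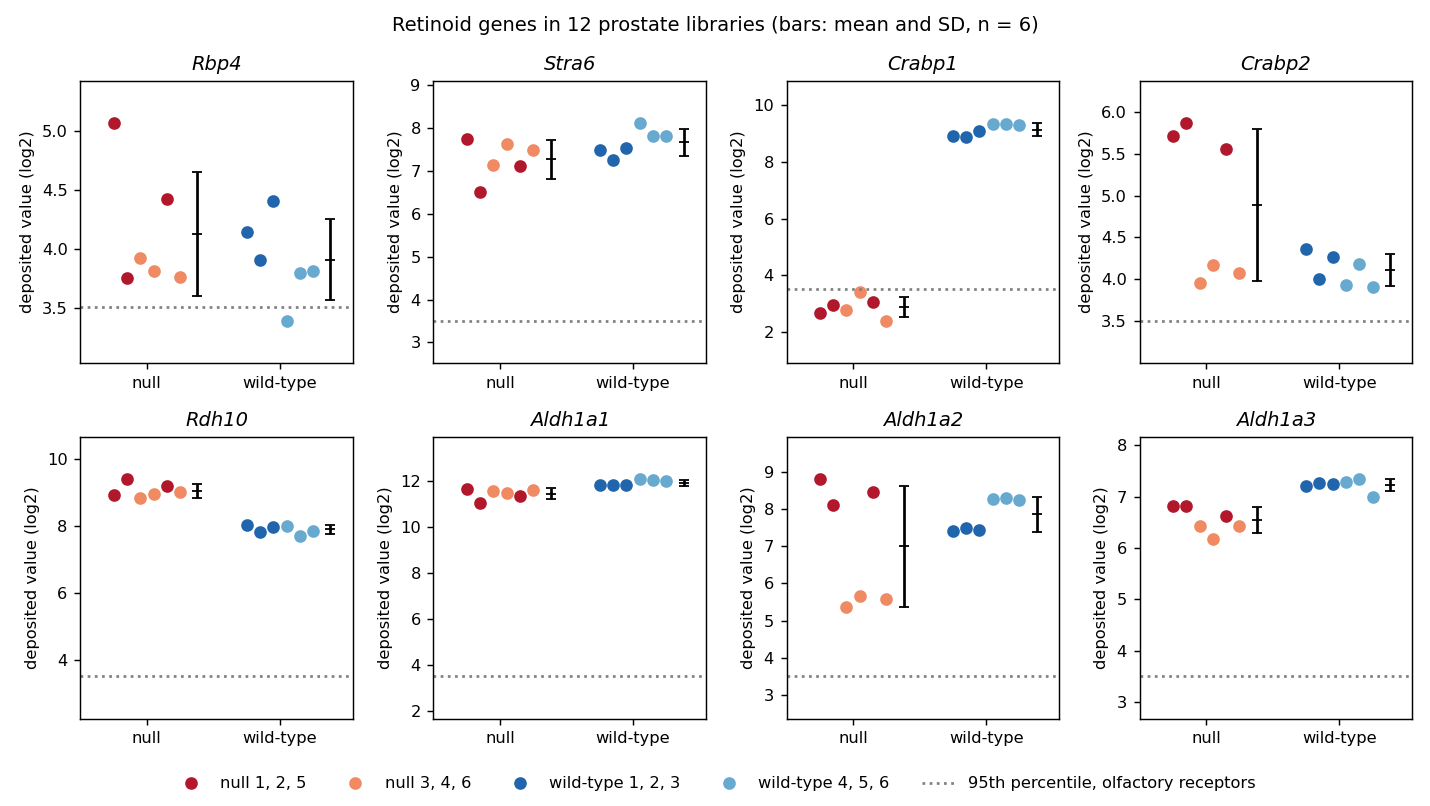
Deposited log2 values of the 8 retinoid genes in each library, null left and wild-type right, coloured by library set, with mean and SD (n = 6 each) as bars and the 95th percentile of olfactory receptor genes as a dotted line. Crabp1 lies under that line in all 6 null libraries, and Crabp2 and Aldh1a2 form separate ranges within the null genotype.

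Transcripts of the blood carrier and its receptor showed no called difference. Rbp4, which is best known from liver and fat, was near the floor throughout. Its values were 3.75, 3.86 and 5.06 in null libraries (lowest, median and highest) and 3.39, 3.86 and 4.40 in wild-type libraries. The genotypes overlapped, and 4 of 12 libraries reached the minimum value of 4 that the filter asked of 6. Without the filter the difference of Rbp4 was 0.22 (limma adjusted p = 0.547). The highest Rbp4 value was in null library 1, the library in which the 9 adipocyte markers were also highest. Summed smooth muscle, endothelial, skeletal muscle and nerve markers were highest there too. The summed level of the adipocyte markers, on the log2 scale, was 7.87 to 11.58 in null libraries and 8.11 to 9.45 in wild-type libraries. Null library 1 was at 11.58 and null libraries 4 and 5 were next at 10.61, with Rbp4 at 3.81 in null library 4 and 4.42 in null library 5. All 9 adipocyte markers were tested, and 5 were called higher and 0 lower in null prostate, against 28.0% and 25.1% of all tested genes. No adipocyte marker was at the floor in all libraries of either genotype. Their part in the Rbp4 values was not tested.

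Stra6 stood at 6.52, 7.32 and 7.74 in null libraries (lowest, median and highest) and at 7.25, 7.67 and 8.11 in wild-type libraries. The ranges overlapped, with null library 2 lowest and wild-type libraries 4 to 6 above all null libraries. The difference was -0.40 (95% confidence interval -0.82 to 0.029, limma adjusted p = 0.108), and adjusted p = 0.258 over set means. An absence of difference is not shown by this interval. The size depended on the libraries used. It was -0.64 against wild-type libraries 4 to 6 alone (limma adjusted p = 0.0487), -0.15 against wild-type libraries 1 to 3 alone (limma adjusted p = 0.633) and -0.25 without null library 2 (limma adjusted p = 0.214).

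Crabp1 had the largest change among the 8 genes. Its value was 2.41, 2.86 and 3.41 in null libraries (lowest, median and highest), against 8.86, 9.19 and 9.33 in wild-type libraries. All null libraries lay under the 95th percentile of undetected genes and far under all wild-type libraries. The transcript of this retinoic acid-binding protein thus fell to 2.88 ± 0.34 in null prostate, against 9.13 ± 0.22 in wild-type prostate (SD, n = 6 each). The difference was -6.25 (SE 0.158, 95% confidence interval -6.58 to -5.91), with limma adjusted p = 8.48e-13 over 12 libraries and 0.000242 over set means. Because the null values sit at the floor, the size of the fall is limited by it: with null libraries set to the 95th percentile of undetected genes, the difference was -5.62. Null sets overlapped, at 2.69 to 3.06 and 2.41 to 3.41, so Crabp1 was near the floor in both.

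The window around the start of Crabp1 is printed because this gene carried the largest change. It runs from 250 bases before to 50 after the start on the forward strand at chr9:54764498-54764797 (RefSeq, GRCm38.p6, while the files name mm9). Capitals mark the GC box GGGCGG on either strand, the site that Sp1 factors are known to bind.
Crabp1: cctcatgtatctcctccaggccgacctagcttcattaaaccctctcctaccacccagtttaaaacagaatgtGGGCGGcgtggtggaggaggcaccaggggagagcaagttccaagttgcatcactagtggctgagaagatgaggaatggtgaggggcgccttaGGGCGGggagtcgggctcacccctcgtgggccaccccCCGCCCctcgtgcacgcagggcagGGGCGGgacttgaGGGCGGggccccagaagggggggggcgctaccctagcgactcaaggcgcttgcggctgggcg

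The Crabp1 window held 4 GC boxes on the gene's strand and 1 on the other, none overlapping another motif searched, and its GC content was 65.0%. At least 1 GC box was found in 35.7% of 32851 RefSeq promoter windows of 300 bases, whose median GC content was 52.7%. The hexamer AGGTCA, which nuclear receptors such as those of retinoic acid are known to bind, was in none of the 10 windows that matched 5 of the 8 genes, and in 16.3% of all windows. These matches are descriptions of the letters in the windows only.

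Crabp2 did not follow its paralog. In null libraries 1, 2 and 5 it stood at 5.71, 5.86 and 5.55, and in null libraries 3, 4 and 6 at 3.96, 4.17 and 4.07. Wild-type libraries lay at 3.91, 4.09 and 4.36 (lowest, median and highest), so only null libraries 1, 2 and 5 stood above the wild-type range. The wild-type values and those of null libraries 3, 4 and 6 were near the floor. Crabp2 reached the filter's value of 4 in 8 of 12 libraries, and with the filter at 5 it was not tested. Over 12 libraries the difference was 0.78 (95% confidence interval 0.056 to 1.5, limma adjusted p = 0.0655), and adjusted p = 0.383 over set means. The call depended on scaling, since after quantile normalization the difference was 0.87 with limma adjusted p = 0.0286. Without null libraries 3, 4 and 6 the difference was 1.60, and without null libraries 1, 2 and 5 it was -0.039.

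Within each library, the value of Crabp1 minus that of Crabp2 was -2.01 ± 0.94 in null and 5.02 ± 0.35 in wild-type prostate (SD, n = 6 each), and the genotypes did not overlap. This balance shifted by -7.03 log2 units (two-sided exact permutation test over 924 splits, p = 0.00216, the smallest the design allows, adjusted p = 0.00866 over 4 pairs). With null Crabp1 set to the 95th percentile of undetected genes the shift was -6.40. It rests on the fall of Crabp1 described above and on the filter that admitted that gene. In null libraries 3, 4 and 6 both genes were near the floor. Over the 4 set means 6 splits are possible and the smallest p is 0.333, so no such comparison of balances could pass there. The shift lay between -7.82 and -6.23 when any library or any set was left out.

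Rdh10, which encodes the dehydrogenase of the first oxidation step, was the gene of the 8 that rose. Its values were 8.81, 8.96 and 9.39 in null libraries (lowest, median and highest) and 7.68, 7.90 and 8.03 in wild-type libraries, with no overlap. Rdh10 averaged 9.03 ± 0.21 in null and 7.88 ± 0.13 in wild-type prostate (SD, n = 6 each). The difference was 1.15 (SE 0.0947, 95% confidence interval 0.95 to 1.35), with limma adjusted p = 1.80e-07 over 12 libraries and 0.00655 over set means. The call also held against a change of 1.5-fold (adjusted p = 0.000463), which 7.00% of all tested genes passed. The null sets overlapped, at 8.91 to 9.39 and 8.81 to 8.99.

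**Figure D2:**
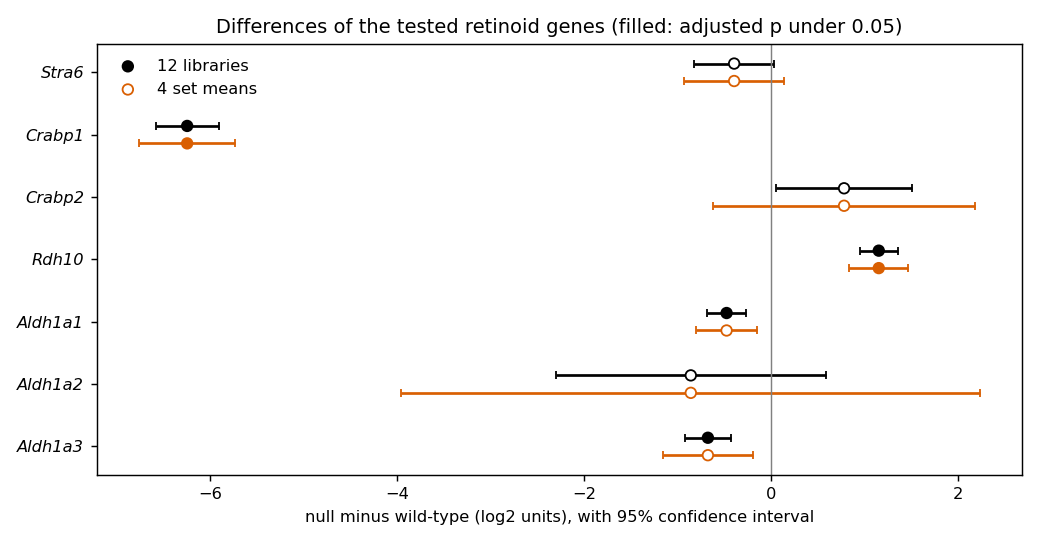
Null minus wild-type difference in log2 units with its 95% confidence interval for the 7 tested genes, over 12 libraries (black) and over 4 set means (orange), filled where the adjusted p was under 0.05. Crabp1 at -6.25 and Rdh10 at 1.15 are filled in both fits, and the interval of Aldh1a2 is the widest.

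The 3 retinaldehyde dehydrogenase genes behaved unequally. Aldh1a1 and Aldh1a3 were lower in null prostate over 12 libraries, and Aldh1a2 took a high and a low range within the null genotype. Aldh1a1 stood at 11.04, 11.54 and 11.67 in null libraries (lowest, median and highest) and at 11.81, 11.92 and 12.09 in wild-type libraries. The ranges did not overlap, with null library 1 closest to the wild-type range. Aldh1a1 fell by 0.48 on the log2 scale (SE 0.0963, limma adjusted p = 0.000827), and the call was lost over set means (adjusted p = 0.0643).

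Aldh1a3 stood at 6.18, 6.52 and 6.82 in null libraries (lowest, median and highest) and at 7.00, 7.25 and 7.34 in wild-type libraries, with no overlap. It fell by 0.68 on the log2 scale (SE 0.113, limma adjusted p = 0.000165), with adjusted p = 0.0712 over set means. Null libraries 3, 4 and 6, at 6.18 to 6.42, lay under null libraries 1, 2 and 5, at 6.62 to 6.82. Wild-type library 6 was the lowest of its genotype. Neither Aldh1a1 nor Aldh1a3 passed a test against a 1.5-fold change.

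Aldh1a2, the main source of retinoic acid in the mouse embryo, stood at 8.81, 8.10 and 8.47 in null libraries 1, 2 and 5. In null libraries 3, 4 and 6 it stood at 5.36, 5.66 and 5.58. Wild-type libraries 1 to 3 lay at 7.40 to 7.48 and wild-type libraries 4 to 6 at 8.25 to 8.31, between these null ranges or within the higher one. The null sets lay 2.93 log2 units apart and the wild-type sets 0.84 apart. The genotype difference was -0.86 (95% confidence interval -2.30 to 0.58, limma adjusted p = 0.297), with adjusted p = 0.645 over set means. Its direction rested on the libraries used. Without null libraries 1, 2 and 5 the difference was -2.32, and without null libraries 3, 4 and 6 it was 0.60.

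The balance of these enzymes' transcripts within a library gave no called difference between genotypes over 12 libraries. Aldh1a1 minus Aldh1a2 was 4.46 ± 1.72 in null and 4.08 ± 0.34 in wild-type prostate (SD, n = 6 each; exact permutation p = 0.615, adjusted p = 0.755 over 4 pairs). Aldh1a1 minus Aldh1a3 was 4.91 ± 0.40 in null and 4.71 ± 0.17 in wild-type prostate (SD, n = 6 each; exact permutation p = 0.284, adjusted p = 0.567). Aldh1a2 minus Aldh1a3 was 0.45 ± 1.41 in null and 0.63 ± 0.49 in wild-type prostate (SD, n = 6 each; exact permutation p = 0.755, adjusted p = 0.755). In the pairs with Aldh1a2 the null libraries lay on either side of the wild-type range, at 2.86 to 2.93 and 5.85 to 6.22 for Aldh1a1 minus Aldh1a2. All 3 balances depended on the null set used. Without null libraries 1, 2 and 5 each passed (exact permutation test, adjusted p = 0.0119, the smallest that 3 against 6 libraries allow). Without null libraries 3, 4 and 6 both balances with Aldh1a2 passed in the opposite direction. There the adjusted p of the exact permutation test was 0.0238 for Aldh1a1 minus Aldh1a2 and 0.0317 for Aldh1a2 minus Aldh1a3. The sets were found from these values and their libraries may not be independent, so these passes are descriptions and no check.

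**Figure D3:**
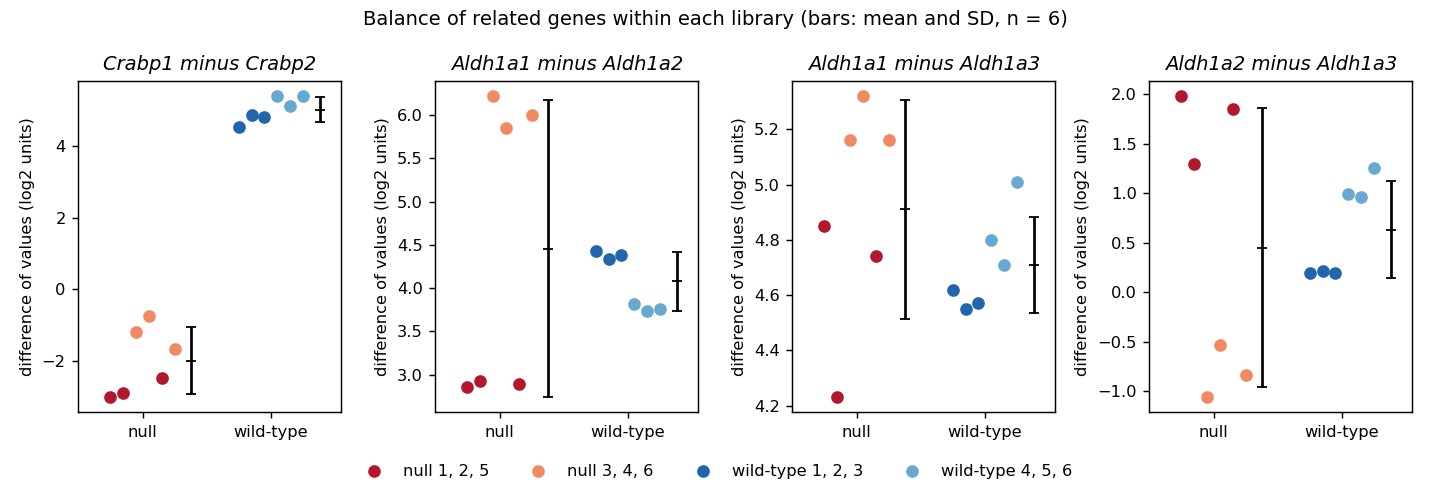
Within-library difference of values between related genes, in log2 units, null left and wild-type right, coloured by library set, with mean and SD (n = 6 each). Crabp1 minus Crabp2 separates the genotypes, at -3.02 to -0.76 in null and 4.53 to 5.40 in wild-type libraries, while null libraries lie on either side of wild-type ones for Aldh1a1 minus Aldh1a2.

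Promoter windows of Aldh1a1 and Aldh1a2 are printed because these related genes differed in how they varied. Capitals mark the octamer ATGCAAAT, the site that POU factors are known to bind, a motif chosen after the windows had been read. The windows lie on the forward strand at chr19:20601718-20602017 for Aldh1a1, the second of its RefSeq starts, and at chr9:71215539-71215838 for Aldh1a2 (RefSeq, GRCm38.p6).
Aldh1a1: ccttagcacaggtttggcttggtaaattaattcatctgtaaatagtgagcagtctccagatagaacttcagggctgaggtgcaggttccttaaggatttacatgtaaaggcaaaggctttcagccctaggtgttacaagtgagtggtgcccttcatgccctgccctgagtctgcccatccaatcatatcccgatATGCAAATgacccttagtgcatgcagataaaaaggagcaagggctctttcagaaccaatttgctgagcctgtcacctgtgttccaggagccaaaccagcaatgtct
Aldh1a2: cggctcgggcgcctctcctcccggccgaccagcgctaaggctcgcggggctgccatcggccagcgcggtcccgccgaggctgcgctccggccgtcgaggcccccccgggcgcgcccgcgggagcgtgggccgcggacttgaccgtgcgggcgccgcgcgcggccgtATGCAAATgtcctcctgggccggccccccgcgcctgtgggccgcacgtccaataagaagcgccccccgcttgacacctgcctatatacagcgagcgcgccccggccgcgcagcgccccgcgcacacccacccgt

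The octamer began at position -56 from the start in Aldh1a1 and at -84 in Aldh1a2, each on the gene's strand, and overlapped no other motif searched. It was in 1.74% of all 32851 windows, searched on both strands, and in the windows of 2 of the 5 genes that matched. GC content was 47.0% in the Aldh1a1 window and 78.0% in that of Aldh1a2. Both windows held the box CCAAT, as did 37.4% of all windows.

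Aldh1a7, a close relative of Aldh1a1 that is not known to make retinoic acid in the mouse, stood at 8.63 to 9.06 in null libraries and at 9.96 to 10.03 in wild-type libraries. It fell by 1.15 on the log2 scale (SE 0.0615, limma adjusted p = 2.22e-09 and 0.00257 over set means). Aldh1a1 and Aldh1a7 are near-identical in sequence. The treatment of reads that match both is unknown, which leaves the sizes of their changes uncertain.

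In both Crabp2 and Aldh1a2, null libraries 1, 2 and 5 lay above null libraries 3, 4 and 6. Null sets did not overlap in 3 of the 7 tested genes (Crabp2, Aldh1a2 and Aldh1a3), against 39.0% of all tested genes. In Crabp2 and Aldh1a2 they also lay at least 1 log2 unit apart, as in 1.56% of all tested genes. Wild-type sets did not overlap in 4 of the 7 (Stra6, Crabp1, Aldh1a1 and Aldh1a2), against 43.9% of all tested genes, and lay at least 1 log2 unit apart in 0 of the 7, against 2.13%. The sets were found from these values across the transcriptome, so the shares are descriptions. Among the 39 other retinoid pathway genes tested, 2 met the same criterion. Cyp26b1, which encodes an enzyme that breaks retinoic acid down, stood at 6.93 to 7.62 in null libraries 1, 2 and 5 and at 4.62 to 5.18 in null libraries 3, 4 and 6. Wild-type libraries lay at 6.53 to 6.93, above the lower null range and reaching the edge of the higher one. Cd38, a known retinoic acid target in human myeloid cells, stood at 6.60 to 7.06 and 5.57 to 6.01 in the same null sets and at 6.04 to 6.90 in wild-type libraries. Genotype differences were not called for Cyp26b1 (-0.63, limma adjusted p = 0.286) or Cd38 (-0.22, limma adjusted p = 0.50).

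Among 8 markers of seminal vesicle secretion, 1 separated the null sets in the same way and 7 overlapped between them. The 1 was Svs2, which stood at 17.86 to 19.36 in null libraries 1, 2 and 5 and at 11.62 to 12.56 in null libraries 3, 4 and 6. Wild-type libraries 1 to 3 lay at 11.15 to 11.26 and wild-type libraries 4 to 6 at 4.52 to 4.81. The summed level of the 8 seminal vesicle markers was 18.17 to 20.29 in the first null set and 16.84 to 18.04 in the second. In wild-type libraries it was 11.57 to 11.65 in the first set and 7.99 to 8.02 in the second. Svs5 ran much like Svs2, at 15.60 to 17.87 in the first null set and 14.39 to 15.60 in the second, touching at the edge. In the wild-type sets Svs5 was 9.20 to 9.22 and 4.00 to 4.32. The remaining markers did not follow Svs2. In 6 of the 8, Svs2 and Svs5 not among them, null library 1 was the lowest null library. Svs4 stood at 12.38, 18.20 and 17.24 in null libraries 1, 2 and 5 and at 16.08, 17.24 and 16.81 in null libraries 3, 4 and 6, against 3.75 to 5.52 in wild-type libraries. All 8 markers were called higher in null prostate over 12 libraries. Among all tested genes 28.0% were called higher and 25.1% lower. Svs2 and Svs5 did not pass over set means (limma adjusted p = 0.358 and 0.122). Of the 8, 4 (Svs3a, Svs3b, Svs6 and Sva) reached a value of 4 in 0 wild-type libraries and passed the filter only through null libraries. Aldh1a2 ran the other way between the wild-type sets, higher in wild-type libraries 4 to 6 where Svs2 was lower. The mesothelial gene Upk3b was 2.39 to 3.35 in null libraries 1, 2 and 5 and 3.48 to 5.27 in null libraries 3, 4 and 6. Msln, on the same list, was 1.90 to 3.41 and 3.87 to 4.85 in these sets. Wt1, the highest of the list in null libraries, ran the other way, at 7.36 to 7.52 and 6.73 to 6.93. The null sets overlapped for Lrrn4. Between the wild-type sets Upk3b was 2.66 to 3.06 in the first and 7.45 to 7.57 in the second, and Msln was 5.38 to 5.81 and 6.80 to 7.07. The summed level of 4 mesothelial markers was 7.56 to 7.74 in the first null set and 7.28 to 7.64 in the second. The first wild-type set had 7.36 to 7.72 and the second 8.78 to 8.82. Of these 4, 2 were tested, 1 called higher and 1 lower in null prostate, and none was at the floor in all libraries of either genotype. The part of these tissues in the retinoid values was not tested.

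**Figure D4:**
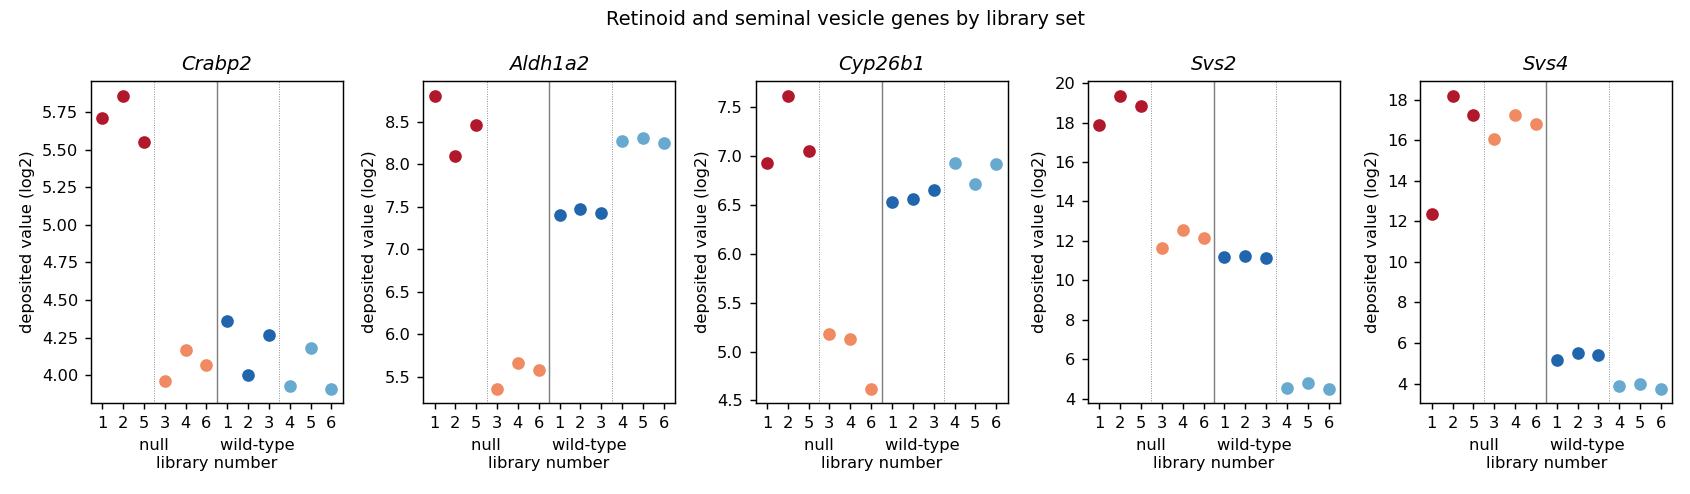
Deposited log2 values of Crabp2, Aldh1a2, Cyp26b1 and the seminal vesicle genes Svs2 and Svs4 in each library, null left and wild-type right, ordered by library set. Null libraries 1, 2 and 5 lie above null libraries 3, 4 and 6 in the first 4 panels and not in Svs4, and in Crabp2 null libraries 1, 2 and 5 lie above all wild-type libraries.

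Of 14 marker lists, the summed level was higher in all null than in all wild-type libraries in 4, lower in 3 and overlapping in 7. The same sums also separated the null sets in 8 of 14 lists. Null libraries 1, 2 and 5 were above null libraries 3, 4 and 6 in 4 (smooth muscle, endothelium, seminal vesicle and skeletal muscle) and below them in 4 (luminal epithelium, prostate secretion, basal epithelium and urothelium). Beside the marker counts given next, 28.0% of all tested genes were called higher and 25.1% lower over 12 libraries. Null sets did not overlap in 39.0% of all tested genes. The summed level of 10 luminal markers was 15.98 to 16.34 in null and 16.07 to 16.32 in wild-type libraries, with 5 members called higher and 4 lower, and 8 of 10 genes were lower in the first null set than in the second. For 5 prostate secretion markers the summed level was 19.19 to 19.61 in null and 20.71 to 20.94 in wild-type libraries, with 5 lower. Tgm4, the highest of them in null libraries, fell by 0.39 and alone did not pass over set means. Pbsn fell by 2.15, Spink3 by 4.00 and Msmb by 5.62, and Sbp averaged 4.07 in null and 19.12 in wild-type libraries. Between the null sets 1 of the 5 was above, 1 below and 3 overlapped. That of 6 basal markers was 11.20 to 11.82 in null and 10.69 to 10.84 in wild-type libraries, with 5 higher and 0 lower. Within null it was 11.20 to 11.30 in the first set and 11.77 to 11.82 in the second. For 6 smooth muscle markers it was 16.31 to 16.53 in the first null set, 15.81 to 16.06 in the second and 16.14 to 16.34 in wild-type libraries, with 1 lower. All 6 smooth muscle genes were higher in the first null set, as Crabp2 and Aldh1a2 were. In wild-type libraries 1 to 3 the smooth muscle sum was 16.27 to 16.34, and in wild-type libraries 4 to 6 it was 16.14 to 16.21. Aldh1a2 ran the other way there, at 7.40 to 7.48 and 8.25 to 8.31. For 6 endothelial markers the summed level was 10.61 to 10.95 in the first null set and 10.40 to 10.43 in the second. It was 10.43 to 10.91 in wild-type libraries, with 1 higher and 1 lower. Urothelial markers summed to 13.22 to 14.45 in null and 12.54 to 12.78 in wild-type libraries, with 2 higher and 0 lower. Skeletal muscle markers summed to 11.66 to 12.26 in null and 11.46 to 11.60 in wild-type libraries. Of these, 1 was called higher (Acta1, the highest in value) and 3 lower (Myh1, Myh2 and Actn3). Myh1 and Myh2 passed the filter only through wild-type libraries. For 6 fibroblast markers the summed level was 13.39 to 13.88 in null and 13.68 to 13.94 in wild-type libraries, with 1 lower. The 8 myeloid markers in the table all fell, with a summed level of 11.32 to 11.44 in null and 11.86 to 12.71 in wild-type libraries. Of 6 lymphocyte markers 5 fell, with a summed level of 7.06 to 7.41 in null and 7.85 to 9.03 in wild-type libraries. Nerve markers, at 6.97 to 9.35 in null and 7.42 to 9.08 in wild-type libraries, gave no call. Among the markers of these lists Myh4 of skeletal muscle alone was at the floor in all libraries of both genotypes. Their part in the retinoid values was not tested.

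Beyond the 8 genes, 39 of 59 other retinoid pathway genes in the table were tested, and 25 were called, 12 higher and 13 lower in null prostate. That is 64.1%, against 53.1% of all tested genes. Over set means 10 passed, 5 higher and 5 lower, against 14.5% of all tested genes. The median difference was 0.040, against 0.012 over all tested genes.

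Among receptors, Rxrg changed most. This gene encodes the retinoid X receptor gamma, a partner of retinoic acid receptors. It stood at 4.00, 4.30 and 5.08 in null libraries (lowest, median and highest), against 7.69, 7.73 and 7.88 in wild-type libraries. Rxrg fell by 3.34 on the log2 scale (SE 0.162), with limma adjusted p = 7.79e-10 over 12 libraries and 0.00212 over set means, and the genotypes did not overlap. Of the 6 receptor genes, 2 rose and 2 fell. Rarg, the gamma retinoic acid receptor, rose by 0.21 and Rxra, the alpha retinoid X receptor, fell by 0.17. Rxrb was called higher by 0.17 as deposited but not after quantile normalization (0.10, limma adjusted p = 0.205) or an upper quartile shift (0.10, limma adjusted p = 0.209). Rara and Rarb were not called, and over set means only Rxrg of the 6 passed.

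Of 8 genes for cofactors of nuclear receptors, 7 rose, 0 fell and 1 was not called, and 5 rose over set means. Among all tested genes 28.0% were called higher, and 7.58% over set means. The acetyltransferase gene Crebbp rose by 0.72 and its paralog Ep300 by 0.66. The corepressor gene Ncor1 rose by 0.59, and in all 3 the genotypes did not overlap. The median difference of the list was 0.57. These cofactors serve many nuclear receptors besides those of retinoic acid.

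Among 10 tested genes of other retinol and retinaldehyde enzymes, 5 fell, 2 rose and 3 were not called. Over set means 3 were lower and 0 higher, and the median difference was -0.18. Among all tested genes 25.1% were called lower, and 6.96% over set means. Rdh16, a retinol dehydrogenase gene of the microsomes, stood at 2.99 to 3.64 in null and 4.60 to 5.18 in wild-type libraries and fell by 1.44, with null values near the floor. It reached a value of 4 in 0 null libraries, so its pass, and its place in both counts, came through the wild-type libraries alone. Rdh11, which encodes a retinaldehyde reductase, stood at 8.30 to 8.53 in null and 9.22 to 9.49 in wild-type libraries and fell by 0.89 (limma adjusted p = 1.84e-08 and 0.00820 over set means). Dhrs3, which encodes a retinaldehyde reductase that retinoic acid is known to induce, stood at 9.50 to 9.74 in null and 10.12 to 10.45 in wild-type libraries. It fell by 0.64 (limma adjusted p = 4.73e-06 and 0.0324 over set means). Adh1, an alcohol dehydrogenase gene whose enzyme also acts on retinol, rose by 0.30.

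Among 9 tested genes known to respond to retinoic acid, 4 fell, 0 rose and 5 were not called, with a median difference of -0.22. That is 44.4% called, under the 53.1% of all tested genes, and over set means only Dhrs3 passed. Without null library 6 the count was 2. Rarres2, which encodes chemerin, fell by 0.68 and Tgm2, a transglutaminase gene, fell by 0.22. Rarb and Cyp26b1, both known targets, were not called. Of the 3 genes for retinoic acid breakdown, Cyp26a1 and Cyp26c1 did not pass the filter. Cyp26a1 was near the floor, at 2.40 to 3.53 in null and 3.42 to 4.03 in wild-type libraries, and without the filter it was called lower (-0.66, limma adjusted p = 0.0296).

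Among other carriers, Fabp5, which encodes a fatty acid-binding protein that also binds retinoic acid, fell by 0.39, while Rbp7 and Ttr were not called. None of these passed over set means. Among 4 tested genes of retinyl ester storage and carotenoid cleavage, 1 rose and 1 fell. Bco2, which encodes a carotenoid-cleaving enzyme, fell by 0.96 (limma adjusted p = 0.00175 and 0.0868 over set means). Lpl, the lipoprotein lipase gene, rose by 0.80 (limma adjusted p = 0.00332 and 0.0804 over set means). The genotypes overlapped for Lpl, with null library 2 at 9.22 within the wild-type range of 9.06 to 9.42. Adipocyte markers were lowest in null library 2 and highest in null library 1, where Lpl (10.16) was below null libraries 3, 4 and 6 (10.18 to 10.56). Their part in the Lpl values was not tested. Aldh1b1 was not called (0.041, limma adjusted p = 0.832).

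**Figure D5:**
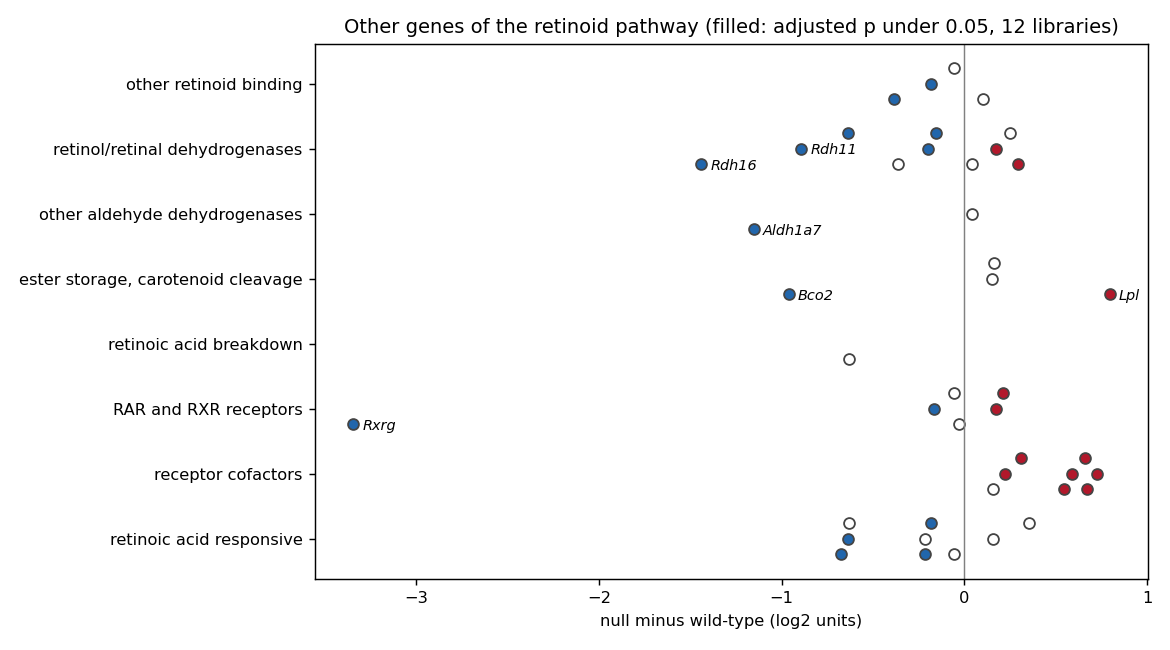
Null minus wild-type difference in log2 units of every tested gene on the 8 lists of other retinoid pathway genes, filled where limma's adjusted p over 12 libraries was under 0.05 (red higher, blue lower in null), with genes beyond 0.75 named. Rxrg at -3.34 stands farthest out, and 7 of 8 receptor cofactors lie to the right and are filled.

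The genes whose values ran most like those of a retinoid gene were named by Pearson's r over the 12 libraries, among 13244 tested genes with a mean of at least 5. For Crabp1 these were H2-Q10 (r = 0.997) and Hdac9 (r = 0.996), which followed the genotype. For Crabp2 they were C030039L03Rik (r = 0.982) and Pfkfb3 (r = 0.975), and for Aldh1a2 Slc6a14 (r = 0.968) and Hoxd4 (r = 0.950). For Rdh10 they were Gm17689 (r = 0.988) and Taf4a (r = 0.986), for Aldh1a1 Phkb (r = 0.977) and Mbp (r = 0.976), and for Aldh1a3 Fbxw7 (r = 0.974) and Figf (r = 0.973). For Stra6 they were Ptprz1 (r = 0.940) and Pla2g16 (r = 0.921), and for Rbp4 Adcyap1r1 (r = 0.940) and Pop1 (r = 0.938). These values describe 12 libraries that share genotype and sets, and carry no test.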

How the data were processed

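RNA of 12 prostate libraries was poly-A selected and prepared with the Illumina TruSeq kit for HiSeq sequencing, per the labels' protocols. Cufflinks 2.0.2, TopHat2 2.0.4, CASAVA 1.8.2, DESeq and the build mm9 are listed without roles in the submitters' processing notes. The deposited values are on a log2 scale, from 1.07 to 21.6, as judged from their range. Their exact transformation is unknown. No counts were used here, so no count test was run and depth is unknown.

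These values entered limma 3.58.1 (R 4.3.3) unchanged (mean-variance trend, robust moderation, genotype as the only term, Benjamini-Hochberg over all tested genes, threshold 0.05). A gene was tested if 6 or more libraries reached a value of 4. A fit on 4 set means, 2 against 2, gave the second p-values. Related genes were compared within libraries by exact permutation. The fits were tested on simulated data.

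The members, gene lists, filter and sets were chosen with earlier results of these data known. Named were the 8 genes, up to 4 called genes of each pathway list by adjusted p (with under 2 called, those of highest mean up to 2), and the 2 genes most correlated with each of the 8; Cd38, Rara, Rarb, Rbp7, Ttr, Cyp26a1, Cyp26c1 and the marker genes were named after their values were seen. Alternatives were other scalings, filters and tests, and libraries or sets left out; null libraries 5 and 6 left out together, since they resembled mixes of the others, and balances over set means were added after seeing the data. The targeted gene and some genes that the rule names are not reported here. Protein sequences were not used here.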

Additional observations from a re-analysis of the deposited data

Results flagged for a closer look

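Each named gene of the retinoid pathway was examined for a library that stood apart within its genotype, in 54 groups of 6 libraries. A library was marked where its gap to the nearest other was over 0.625 of the group's range, which chance does in about 1 of 20 groups. In 1 group this was so. Aldh1a3 stood at 7.00 in wild-type library 6, with the other wild-type libraries at 7.21 to 7.34.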

How the results depend on the processing

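The calls of Crabp1 and Rdh10 held in all alternatives run. Aldh1a1 (-0.48) and Aldh1a3 (-0.68) kept their direction in all and lost their call over set means and against a 1.5-fold change. Crabp2 (0.58 to 0.96 with single libraries left out) was called after quantile normalization (0.87), without any 1 of null libraries 3, 4 or 6 and without all of these (1.60), and reversed without null libraries 1, 2 and 5 (-0.039). Aldh1a2 was called at -2.32 without null libraries 1, 2 and 5 and reversed to 0.60 without null libraries 3, 4 and 6. Stra6 was called at -0.64 without wild-type libraries 1 to 3 and was -0.15 without wild-type libraries 4 to 6 and -0.25 without null library 2, not called. The cause was not tested. The balance Crabp1 minus Crabp2 (-7.03) could not pass over set means, where the smallest p is 0.333. Aldh1a1 minus Aldh1a2 was 1.95 without null libraries 1, 2 and 5 and -1.18 without 3, 4 and 6. That of Aldh1a1 minus Aldh1a3 was 0.50 and -0.10 in the same settings. That of Aldh1a2 minus Aldh1a3 was -1.44 and 1.08 there, 0.25 without wild-type libraries 4 to 6, and -0.49 to 0.12 with single libraries left out. Of these, the 3 values without null libraries 1, 2 and 5 and the values -1.18 and 1.08 had an adjusted exact permutation p under 0.05. The sets came from these data, so such calls are no independent check. Of all tested genes 8013 were called, and 4984 with sets as random blocks, 2195 over set means and 1056 against a 1.5-fold change. Of the other retinoid pathway genes 25 were called, 10 over set means and 4 against a 1.5-fold change. The split of calls, 4224 higher and 3789 lower, became 3367 and 4869 after an upper quartile shift. No paired analysis was possible because the labels give no replicate numbers. Depth is unknown, so values near the floor cannot be bounded.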
